A study of Hylyphantes graminicola with 5 samples.

Results

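The ELAV family genes were followed through the adult brain of the web-building spider *Hylyphantes graminicola*. The family was taken as 2 genes by identifier, *elav* (evm.TU.CTG-870.20) and *ELAV2_S1* (evm.TU.CTG-1087.5), out of the 19195 genes counted, and both were detected in all 5 libraries. The best protein match that the study lists is ELAV-like protein 4 for *elav* and ELAV-like protein 2 for *ELAV2_S1*. The study places both in the gene family of the fly genes *elav*, *fne* and *Rbp9*, and further spider genes of that family were not analysed here. Brains of wild-caught adults of mixed age, 35 to 40 per library, were pooled, dissociated and sequenced by droplet single-cell RNA-seq, in which a unique molecular identifier (UMI) marks every transcript caught from a cell. There were 3 female and 2 male libraries, and no other treatment or genotype separated them.

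ELAV proteins bind U-rich stretches of RNA through RNA recognition motifs. In *Drosophila*, Elav is a nuclear protein of postmitotic neurons that directs neuron-specific splicing and the use of distant polyadenylation sites, and it is among the most used markers of neurons. The vertebrate relatives of this family, the Hu proteins, stabilise and regulate messenger RNAs of neurons. The roles of the 2 spider genes themselves are not known from these data.

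The libraries held 40233 barcodes, of which 31145 (77.4%) passed the limits on UMIs, genes and mitochondrial share. They held between 12269605 and 35943668 UMIs each, and mitochondrial genes took 14.2 to 26.4% of the UMIs of kept cells. Of the kept cells 28660 (92.0%) were neurons, 1181 hemocytes, 793 glia and 236 fat body, and 275 were in none of these classes. Cluster numbers from the paper came with 1998 cells of female replicate 3 and were carried to the rest. When their own number was hidden, 99.5% of annotated cells kept their class and 77.1% their cluster. Hidden and remaining numbers were both of that library, so these rates do not measure the transfer to the other libraries. The libraries shared 88 of 31057 distinct barcodes. Summed over genes, the class marker lists followed their names. The 5 hemocyte genes summed to 1444 counts per 1e6 UMIs (CPM) in hemocytes and 17.2 CPM in neurons. The 6 glial genes summed to 5308 CPM in glia and 34.1 CPM in neurons, and the 6 fat body genes to 8083 CPM in fat body and 313 CPM in neurons. Not every gene followed its list. In each library 3 of the 5 hemocyte genes and 4 of the 6 glial genes lay lower in neurons than in their own class. The fat body gene *FASN1* lay higher in neurons than in fat body in each of the 5 libraries (log2 difference 3.14 ± 2.13, smallest 1.90). Female replicate 1 held 4 fat body cells with 3736 UMIs, at which 3 UMIs are 803 CPM. That library is too small to show the difference.

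Both genes were highest in neurons, and *ELAV2_S1* was the more abundant of the pair in each library. *elav* stood at 1267, 1142 and 912 CPM in the neurons of female replicates 1, 2 and 3, and at 1130 and 1205 CPM in those of male replicates 1 and 2. *ELAV2_S1* stood at 2145, 1602 and 1703 CPM in the female libraries and at 1885 and 1961 CPM in the male ones. The ranges of the 2 genes did not overlap, since the highest *elav* level lay under the lowest *ELAV2_S1* level. The mean was 1131 ± 134 CPM (SD, n = 5) for *elav* and 1859 ± 214 CPM for *ELAV2_S1*, which placed them 96th and 48th in level among the 17640 genes detected in neurons. A CPM of UMIs counts molecules whatever the length of the transcript, but molecules whose 3′ end lies outside the annotated gene are not counted, so a difference in level between the 2 genes rests on both annotations.

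The classes had been named with the help of these genes: *elav* is among the neuronal markers given in the study's text, and *ELAV2_S1* is the gene that the deposited figure code plots. The levels by class are therefore a description and carry no test. In glia *elav* had 466 ± 189 CPM and *ELAV2_S1* 913 ± 407 CPM (n = 5). In hemocytes, the circulating blood cells, *elav* had 240 ± 86.4 CPM and *ELAV2_S1* 391 ± 144 CPM. Fat body cells gave 266 ± 213 CPM of *elav* and 390 ± 195 CPM of *ELAV2_S1*, but female replicate 1 had 4 such cells and 0 *elav* UMIs, which allows up to 803 CPM for counting error. In each of the 5 libraries the neuron level of both genes lay above that of glia and hemocytes.

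**Figure D1:**
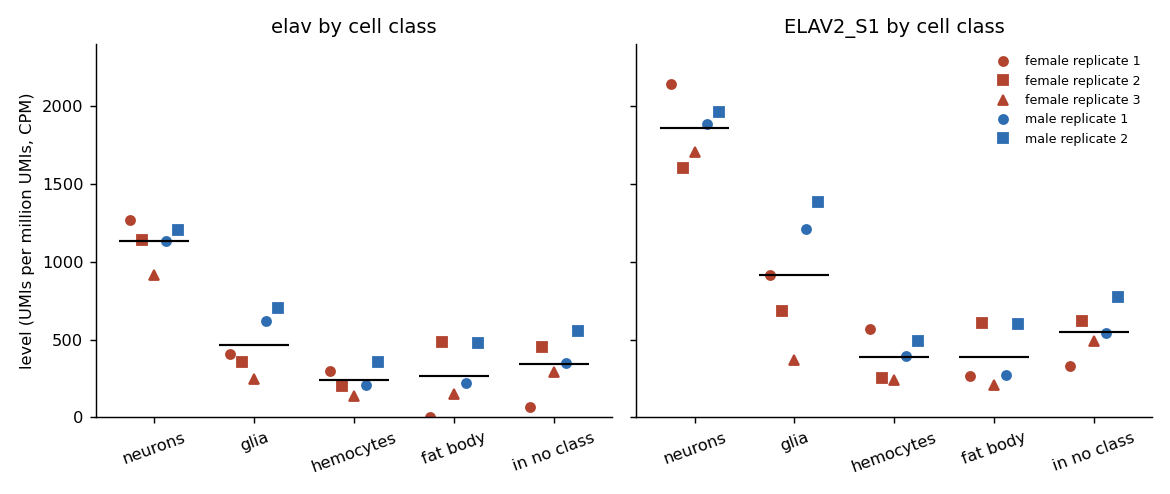
Level of *elav* (left) and *ELAV2_S1* (right) in CPM for each cell class, 1 point per library (red female, blue male) and a black line for the mean of 5 libraries. Neurons lay at 912 to 1267 CPM for *elav* and 1602 to 2145 CPM for *ELAV2_S1*, above the glia and hemocytes of the same library.

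Relative to neurons, the 2 genes kept nearly the same place in hemocytes. The hemocyte level was 20.8 ± 5.77% of the neuron level for *elav* and 20.5 ± 5.44% for *ELAV2_S1* (mean of 5 libraries). On the log2 scale, with 1 CPM added, neurons exceeded hemocytes by 2.30 ± 0.38 for *elav* and 2.32 ± 0.39 for *ELAV2_S1*. Genes of the synaptic machinery and of neuronal excitability were found there at like shares. Over 9 such genes, among them the synaptic vesicle genes *Syt1* and *nSyb* and the sodium channel *para*, the hemocyte level was 14.7 to 39.4% of the neuron level, with a median of 23.7%. In glia the share was 40.7 ± 14.6% for *elav* and 48.4 ± 19.6% for *ELAV2_S1*, against 34.6 to 63.2% for the 9 neuronal genes.

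Part of the hemocyte level sat in cells called doublets, droplets whose counts resemble a mixture of 2 cells. The number called per library was set from its cell number, and the cells with the highest doublet scores, computed from the counts of many genes, were taken. Of the 1181 hemocytes 103 (8.72%) were called. Without them the hemocyte level was 145 ± 100.3 CPM for *elav* and 228 ± 199.5 CPM for *ELAV2_S1*, and the excess of neurons rose to 3.22 and 3.35 on the log2 scale. Doublets were simulated from pairs of cells of the library, and 92.0% of kept cells were neurons. A fall of neuronal genes was therefore partly built into the calls. Female replicate 1 did not move, at 295 CPM of *elav* and 570 CPM of *ELAV2_S1*. In glia, where 3.40% of cells were called, the levels moved to 444 ± 196 and 830 ± 403 CPM. These settings for glia and hemocytes were chosen after seeing the data.

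The share of cells in which a member was seen followed the same order. At an equal depth of 1000 UMIs drawn from every cell, for which 1880 neurons were too shallow, *elav* was found in 57.0 ± 4.60% of neurons and *ELAV2_S1* in 79.005 ± 3.55% (n = 5 libraries). Among hemocytes the same depth gave 12.6 ± 5.02% and 16.99 ± 5.24%, and among glia 25.4 ± 10.2% and 37.7 ± 16.6%. The median depth before thinning was 2699 UMIs in neurons, 2252 in hemocytes and 2035 in glia. The neuron shares lay above those of hemocytes in every library, and whether hemocytes make either RNA themselves was not tested. At full depth *elav* was seen in 78.1 ± 3.44% and *ELAV2_S1* in 92.8 ± 2.86% of neurons, and 3.16 ± 1.36% of neurons had a UMI of neither.

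Joint detection of the 2 genes was set against the number expected if finding one were independent of finding the other within a library. At 1000 UMIs per cell both were seen in 11941 neurons and 11909 were expected, a log2 ratio of 0.004 ± 0.010 (n = 5), where the shares of the rarer gene allowed at most 0.34. Hemocytes with both numbered 63 against 16.9 expected, a log2 ratio of 1.86 ± 0.32 over the 4 libraries with at least 50 hemocytes of that depth, where 2.76 was the most possible. For glia these were 145 against 85.4, 1.09 ± 0.63 and 1.52. Without thinning, and with the expectation taken among cells of like depth, the log2 ratios were 0.003 ± 0.002, 0.86 ± 0.27 and 0.74 ± 0.49, a setting chosen after seeing the data. Without thinning 92.8% of neurons had a UMI of *ELAV2_S1*, which left little room for a joint share above the expected one. The share of called doublets among hemocytes and glia is given above, and its part in the joint detection was not tested. The expectation treated a class as 1 group of cells. The hemocyte clusters, however, ran from 101 to 512 CPM of *elav* and from 192 to 746 CPM of *ELAV2_S1*. The part of such differences within a class was not tested either.

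*elav* varied more from neuron to neuron than *ELAV2_S1*. If every neuron of a library had held the same share of each gene, counting alone would have put an *elav* UMI in 90.0% of neurons and an *ELAV2_S1* UMI in 95.9%, against the 78.1% and 92.8% observed. The variance beyond counting, as a fraction of the squared mean, was 0.50 ± 0.07 for *elav* and 0.23 ± 0.04 for *ELAV2_S1*. Over the 9 neuronal genes this fraction ran from 0.25 to 9.19. It was taken over all neurons of a library, so it includes differences between clusters and between cells of unlike depth or mitochondrial share.

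Across clusters, *elav* and *ELAV2_S1* followed different orders. Of the 42 clusters of the study, 40 had at least 5 annotated cells, 30 of neurons and 10 of other cells. The mean *elav* level ran from 463 to 1710 CPM over the neuron clusters, a 3.69-fold range, and that of *ELAV2_S1* from 833 to 2877 CPM, a 3.46-fold range. The recovery of hidden numbers differed between clusters: 0 of the 8 annotated cells of cluster 23 and 0 of the 15 of cluster 26 got their number back, 1 of the 5 of cluster 37 and 38.8% of the 49 of cluster 12, so the cells carrying these numbers here may not be those of the study's clusters. Cluster 6 recovered 72.0%, cluster 9 91.2% and cluster 38 all of its 7 cells.

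For both genes 29 of the 30 neuron clusters lay above every other cluster. With mitochondrial shares under 20% these were 28 for *elav* and 22 for *ELAV2_S1*. The exceptions among all kept cells were cluster 26 for *elav*, whose number was not recovered (463 ± 255 CPM), under the hemocyte clusters 27 (512 ± 359 CPM) and 36 (464 ± 299 CPM), and cluster 38 for *ELAV2_S1* (833 ± 168 CPM), under the glial clusters 41 (1009 ± 1101 CPM) and 21 (916 ± 409 CPM). Single libraries put 6 to 30 neuron clusters above all others for *elav* and 1 to 29 for *ELAV2_S1*. The lowest of these counts were those of female replicate 1, in which cluster 41 had 1432 CPM of *elav* and 2864 CPM of *ELAV2_S1*. Cluster 41 held only 69 cells over the 5 libraries. In the other libraries it had at most 563 CPM of *elav* and 950 CPM of *ELAV2_S1*.

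The highest *elav* levels were those of clusters 9, 8 and 4 and of the cells numbered 23. Cluster 9 had 1870, 1763 and 1426 CPM in the female libraries and 1699 and 1794 CPM in the male ones, and clusters 8 and 4 had 1524 ± 125 and 1489 ± 145 CPM. The study counts clusters 8 and 9, with cluster 6, as mushroom body-like, after the paired centres of learning in the arthropod brain. The 33 cells numbered 23, a number that was not recovered in any hidden cell, had 1540 ± 486 CPM. At the low end of the neurons stood clusters 39 (543 ± 249 CPM, 4 libraries) and 30 (678 ± 157.5 CPM).

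*ELAV2_S1* was highest in cluster 6, at 3353, 2573 and 2472 CPM in the female and 3061 and 2924 CPM in the male libraries. Cluster 1 followed with 2389 ± 255 CPM and cluster 12, of low recovery, with 2130 ± 274 CPM. In each library cluster 6 lay above cluster 1, by 0.27 ± 0.07 on the log2 scale, and cluster 1 above cluster 12, by 0.17 ± 0.10. The same cluster 6 ranked only 16th for *elav*, at 968 ± 166 CPM. Cluster 20, the GABAergic neurons of the study, had 949 ± 138 CPM of *elav* and 2090 ± 294 CPM of *ELAV2_S1*, and cluster 22, named as monoaminergic, 1419 ± 239 and 1578 ± 223 CPM.

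Most neighbours in either order could not be told apart. Of the 39 pairs of clusters that follow each other in level, the mean log2 difference exceeded its own SD over libraries in 1 pair for *elav* and 4 pairs for *ELAV2_S1*. For *elav* the pair was cluster 3 above cluster 7 (0.14 ± 0.13, in 4 of 5 libraries). No neighbours at its upper end differed beyond their spread, but next to cluster 9 stood the cells numbered 23 (1540 ± 486 CPM). Cluster 9 lay above cluster 4 in each library. Cluster 4 had 1659, 1487 and 1350 CPM in the female and 1342 and 1607 CPM in the male libraries. Cluster 9 also lay above cluster 8, except in female replicate 3 (1426 and 1431 CPM). For *ELAV2_S1* clusters 6 and 1 at the upper end differed from the next cluster beyond the spread. The hemocyte cluster 16 was lowest of all for both genes, at 101 ± 75.9 CPM of *elav* and 192 ± 133 CPM of *ELAV2_S1*.

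**Figure D2:**
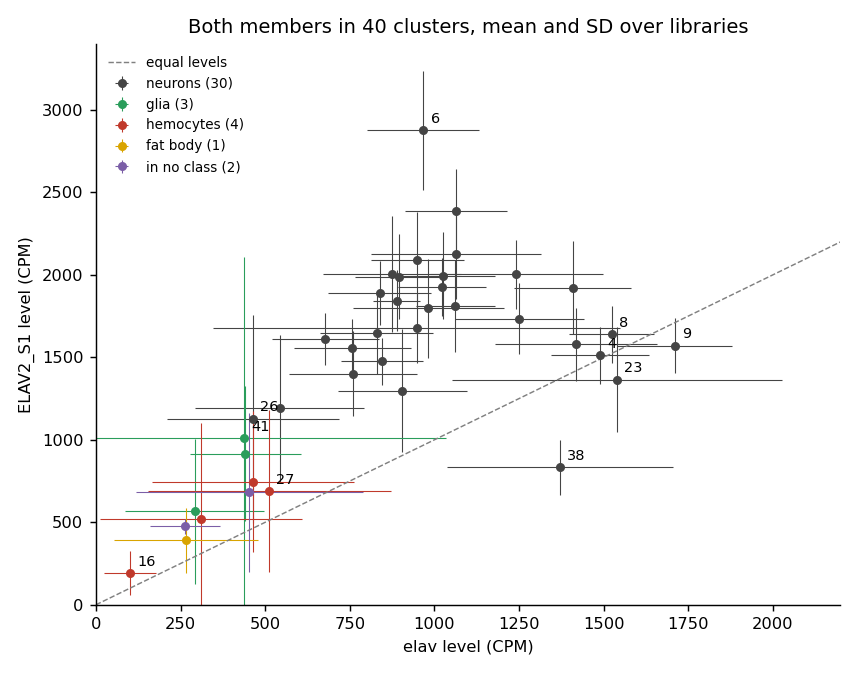
Mean *elav* level (x axis, CPM) against mean *ELAV2_S1* level (y axis, CPM) in 40 clusters coloured by class, with bars for the SD over libraries (cut at 0) and a dashed line of equal levels. Cluster 6 stood apart at 2877 CPM of *ELAV2_S1*, and clusters 9 (1710 CPM of *elav*) and 38 lay under the line of equal levels, as did the cells numbered 23, a number not recovered in hidden cells.

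Among the 30 neuron clusters the 2 genes did not rank alike. Spearman's rho of their mean log2 levels was 0.15, and within single libraries, over 22 to 28 clusters with at least 20 cells, it lay between -0.16 and 0.14. All clusters of a library share its depth and background, so these values are descriptions. Against the median UMIs of the cluster rho was 0.05 for *elav* and -0.29 for *ELAV2_S1*, and against its mitochondrial share 0.42 and 0.28.

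The balance of the 2 genes therefore differed between kinds of neuron. Over all neurons the log2 ratio of *ELAV2_S1* to *elav* was 0.76, 0.49 and 0.90 in the female and 0.74 and 0.70 in the male libraries, a mean of 0.72 ± 0.15 or 1.65 ± 0.17-fold. Hemocytes gave 0.69 ± 0.28 and glia 0.92 ± 0.22. By cluster the mean ran from -0.71 to 1.58 with a median of 0.94, and it was above 0 in 27 of 30 neuron clusters, 24 of them in every library. The means below 0 were those of clusters 38 and 9 and of the cells numbered 23, a number not recovered.

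Cluster 38 had the lowest ratio, -0.71 ± 0.43, and it was below 0 in each of the 5 libraries. Its *elav* level was 1371 ± 333 CPM and its *ELAV2_S1* level 833 ± 168 CPM. The 84 cells of this cluster were large in counts, with a median of 14649 UMIs and 9.48% of mitochondrial UMIs. Cluster 9 stood at -0.12 ± 0.13 and the cells numbered 23 at -0.15 ± 0.48, both within 1 SD of 0. Clusters 4 and 8 stood at 0.02 ± 0.13 and 0.10 ± 0.19. At the other end cluster 6 stood at 1.58 ± 0.16, with 1.41 as its lowest library. Clusters 6, 8 and 9, which the study groups together, thus lay at opposite ends of the order.

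Counted cell by cell, the same UMIs showed this difference again, which is no separate evidence. Of cells thinned to 1000 UMIs, 71.6 ± 4.40% in cluster 6 had more UMIs of *ELAV2_S1* than of *elav* and 12.99 ± 2.70% had fewer. In cluster 9 the shares were 37.8 ± 3.33% and 36.9 ± 2.76%, and in cluster 38 they were 19.1 ± 7.09% and 43.8 ± 14.1%, over the 3 libraries with at least 20 such cells.

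**Figure D3:**
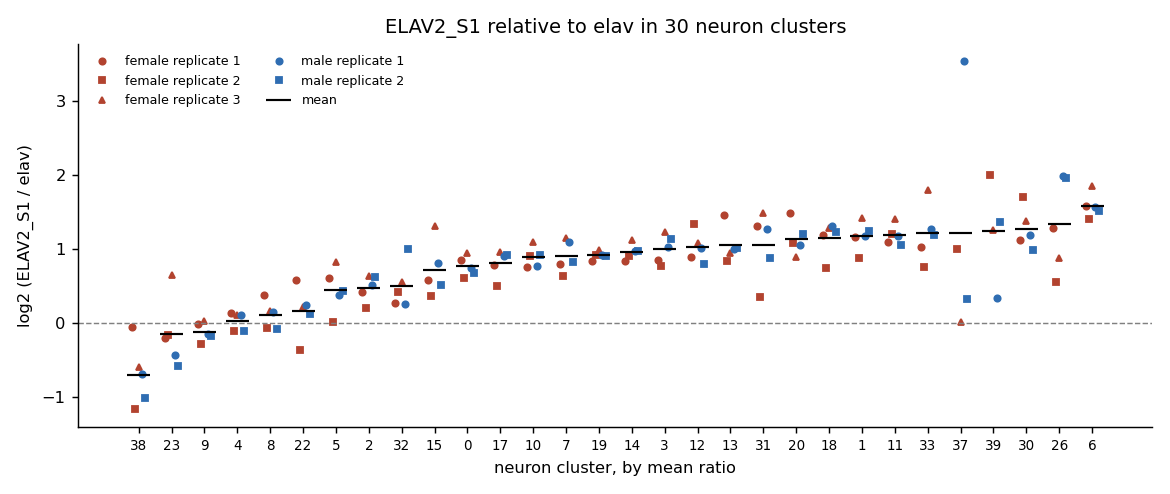
Log2 ratio of *ELAV2_S1* to *elav* (y axis) in 30 neuron clusters ordered by their mean (x axis), with 1 point per library (red female, blue male), black lines for means and a dashed line at equal levels. The means ran from -0.71 in cluster 38 to 1.58 in cluster 6.

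The ratio also moved with the mitochondrial share of a cell. In neurons with 5 to 10% of mitochondrial UMIs the log2 ratio was 1.02 ± 0.33, at 10 to 20% it was 0.87 ± 0.09, at 20 to 30% 0.54 ± 0.08 and at 30 to 40% 0.36 ± 0.09 (n = 5 each). In the lowest of these bins female replicate 2 lay at 0.49 and the other libraries at 1.00 to 1.40. Another 219 neurons had under 5%, in 2 libraries with enough cells, and were left out. The level of *elav* changed more than that of *ELAV2_S1* over these bins. In CPM of non-mitochondrial UMIs it went from 792 ± 210 at 5 to 10% through 1290 ± 176 and 1693 ± 129 to 1866 ± 111 in the highest. *ELAV2_S1* went from 1663 ± 588 to 2363 ± 315 over the first pair of bins and stood at 2468 ± 249 and 2403 ± 220.3 in the others.

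The libraries fell in the same order. Mitochondrial genes took 14.4, 16.2, 17.9, 24.1 and 26.8% of neuron UMIs in female replicates 3 and 1, male replicates 1 and 2 and female replicate 2, and the log2 ratios of these libraries were 0.90, 0.76, 0.74, 0.70 and 0.49. Within the bin of 10 to 20% the libraries lay between 0.78 and 1.02, and in that of 20 to 30% between 0.44 and 0.63. The make-up of the bins differs, since clusters 4, 8 and 9 have 23.1 to 25.6% of mitochondrial UMIs and cluster 6 has 16.3%. Within 16 neuron clusters that had at least 20 cells in both bins in 2 or more libraries, the ratio at 30 to 40% was lower than at 10 to 20% in 13, and in 6 of them in each library measured, with a median difference of -0.25 and a range from -0.88 to 0.43.

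Keeping only cells with under 20% of mitochondrial UMIs gave 0.92 ± 0.10 over all neurons. Under this limit 27 of 30 clusters were above 0, cluster 38 stood at -0.70 ± 0.44, cluster 9 at -0.13 ± 0.19 and cluster 6 at 1.66 ± 0.16.

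**Figure D4:**
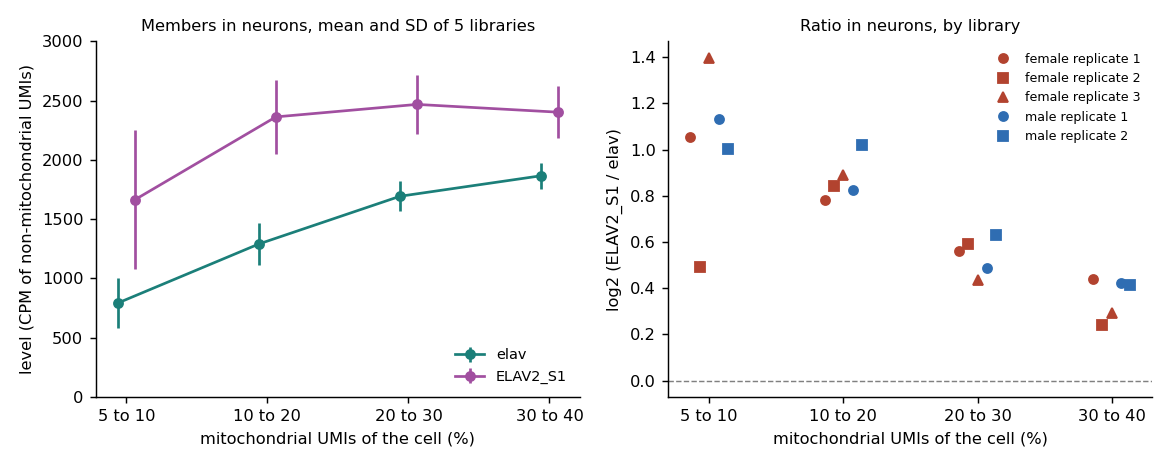
Left, level of both members in neurons (CPM of non-mitochondrial UMIs, mean and SD of 5 libraries) by the mitochondrial share of the cell, and right, the log2 ratio of *ELAV2_S1* to *elav* with 1 point per library (red female, blue male). *elav* went from 792 to 1866 CPM over the 4 bins, and the mean ratio from 1.02 to 0.36.

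The ratio was also lower in deeper cells. The log2 ratio was 0.97 ± 0.16 in neurons of 500 to 1000 UMIs, 1.02 ± 0.19 at 1000 to 2000, 0.81 ± 0.22 at 2000 to 4000, 0.58 ± 0.17 at 4000 to 8000 and 0.66 ± 0.14 above. *elav* had 821 ± 112 CPM in the shallowest and 1250 ± 171 CPM in the 4000 to 8000 bin, where *ELAV2_S1* had 1611 ± 232 and 1864 ± 189 CPM. How far depth and mitochondrial share stand for each other was not tested.

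The genes most like each member in level over the 30 neuron clusters were sought among 5267 genes. For *elav* the named genes with the highest Spearman correlation were *Khc_S1* (rho 0.86), which encodes the heavy chain of the motor kinesin, *Pect* (0.84), an enzyme of phosphatidylethanolamine synthesis, and *TBA_S1* (0.82), an alpha-tubulin. Within single libraries these lay at 0.52 to 0.91, 0.43 to 0.78 and 0.61 to 0.76. For *ELAV2_S1* they were *pum* (0.89), whose fly product Pumilio represses translation of bound messenger RNAs, *Ktl_S1* (0.88), a relative of potassium channel tetramerisation domain proteins, and *Tsp74F_S1* (0.85), a tetraspanin. Within libraries these lay at 0.61 to 0.81, 0.71 to 0.87 and 0.59 to 0.84. Genes without a name came closer still, led by evm.TU.CTG-509.18 for *elav* (0.91) and evm.TU.CTG-806.9 for *ELAV2_S1* (0.92).

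Over the same 5267 genes 25.6% followed *elav* more closely and 74.4% *ELAV2_S1*, with a median rho of 0.29 for *elav* and 0.50 for *ELAV2_S1*. Of the 9 neuronal genes 7 followed *elav* more closely than *ELAV2_S1*, with a median rho of 0.59 against 0.42, *nSyb* (0.76) and the vesicle fusion gene *VAMP1_S2* (0.71) being the closest to *elav*. Of the 17 RNA-binding genes with at least 20 CPM in neurons 14 followed *ELAV2_S1* more closely, with a median of 0.63 against 0.20, and this share of 14 in 17 is near that of all genes. Next to *pum* these were led by the splicing factor *Caper_S2* (0.81) and the spliceosome component *snRNP-U1-70K* (0.81), for which rho with *elav* was 0.26 and -0.01. The exceptions were *orb2_S1*, whose fly relative is a translational regulator needed for long-term memory, *Srp54* and *PAIRB*, at 0.60, 0.69 and 0.53 for *elav*. Clusters share libraries and depth, and no test was made of these correlations.

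By class, the 20 RNA-binding genes exceeded their hemocyte level in neurons by less than the ELAV genes. In neurons 16 of them exceeded hemocytes in each of the 5 libraries, with a median log2 difference of 1.26 against 2.30 and 2.32 for *elav* and *ELAV2_S1*. Only *MEX3B*, a relative of RNA-binding ubiquitin ligases, lay above both members, at 2.65 ± 0.83. Against glia the median was 0.71, and the members had 1.37 ± 0.51 and 1.16 ± 0.68. The poly(A)-binding gene *PABP2_S1* lay lower in neurons than in hemocytes in each library (-0.41 ± 0.11). The list of 20 also held *AGO2_S1*, whose mean neuron level of 0.049 CPM was too low to inform either contrast. Whether the list differs here from all detected genes was not tested, so its counts and medians are no measure of enrichment.

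Between the sexes, neither ELAV gene was called in neurons. Female libraries averaged 1107 CPM of *elav* and 1816 CPM of *ELAV2_S1*, and male libraries 1168 and 1923 CPM. The ranges of the sexes overlapped for both genes. In edgeR's quasi-likelihood test on UMIs summed per library, the log2 difference of females minus males was -0.06 ± 0.32 (SE, 95% interval -0.77 to 0.66, adjusted p = 1.00) for *elav* and -0.09 ± 0.31 (-0.76 to 0.59, adjusted p = 1.00) for *ELAV2_S1*. By edgeR 0 of the 2 genes were called, while edgeR called 7 of the 13439 genes tested, or 0.0521%. DESeq2 called 0 of the 2 as well, and 41 of the 13439. By either tool 0 of the 2 had an unadjusted p under 0.05, while 343 of the 13439 had one in edgeR. Most genes were thus not called, and these counts do not set the 2 members apart. The intervals reach well past 0 on both sides, so a moderate difference in either direction was not detectable with these libraries. The log2 ratio of the 2 genes was 0.72 in both sexes (difference -0.004, exact permutation test over libraries, two-sided p = 1.00, where 3 against 2 libraries allow no p under 0.2).

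The difference was wider in glia, but did not pass the test either. *elav* had 408, 356 and 246 CPM in the glia of the female libraries and 618.5 and 701 CPM in the male ones, and *ELAV2_S1* had 917, 685 and 366 CPM against 1212 and 1383 CPM. The sexes did not overlap for either gene. With 3 against 2 libraries such a separation cannot give a p under 0.2 in an exact permutation test over libraries. How many of all genes tested in glia separated likewise was not counted. The log2 difference was -0.77 ± 0.35 (95% interval -1.55 to 0.01, adjusted p = 0.485 in edgeR) for *elav* and -0.80 ± 0.42 (-1.75 to 0.15, adjusted p = 0.555) for *ELAV2_S1*, while 2 of 4993 genes (0.0401%) were called. The 9 neuronal genes had a median of -0.57 in glia, with 0 called, and all genes tested a median of 0.001. Whether neuronal RNA in glial droplets has a part in this was not tested. In hemocytes the differences were -0.42 ± 0.47 and -0.34 ± 0.46 (adjusted p = 1.00 for both, edgeR), and 2 of 4739 genes (0.0422%) were called.

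Single kinds of neuron gave the same picture. In 22 neuron clusters with at least 20 cells in every library, 0 were called for either gene by edgeR, and 0 had an unadjusted p under 0.05, while 128 of the 149520 gene tests of these clusters passed, or 0.0856%, with between 1 and 10 genes called in a cluster. The log2 differences lay between -0.25 in cluster 20 and 0.21 in cluster 32 for *elav* (median -0.05) and between -0.26 in cluster 20 and 0.08 in cluster 19 for *ELAV2_S1* (median -0.07). DESeq2 was not run on single clusters.

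Of the 20 RNA-binding genes 19 could be tested in neurons and 1 was called, *RBM10*, a splicing regulator. It had 155 CPM in female and 26.6 CPM in male libraries (log2 difference 2.49 ± 0.29, adjusted p = 0.0136, edgeR). The median of the list was 0.08 and that of all genes tested 0.01. Of the 9 neuronal genes 0 were called, and their differences lay between -0.08 and 0.79. Summed over all kept cells, 0 of 19 RNA-binding genes were called by edgeR, with 2.47 as the largest log2 difference. In glia and in hemocytes 0 of 17 were called. *RBM10* was already known to differ in these data when the list was drawn up, so its call is no separate evidence for the list.

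**Figure D5:**
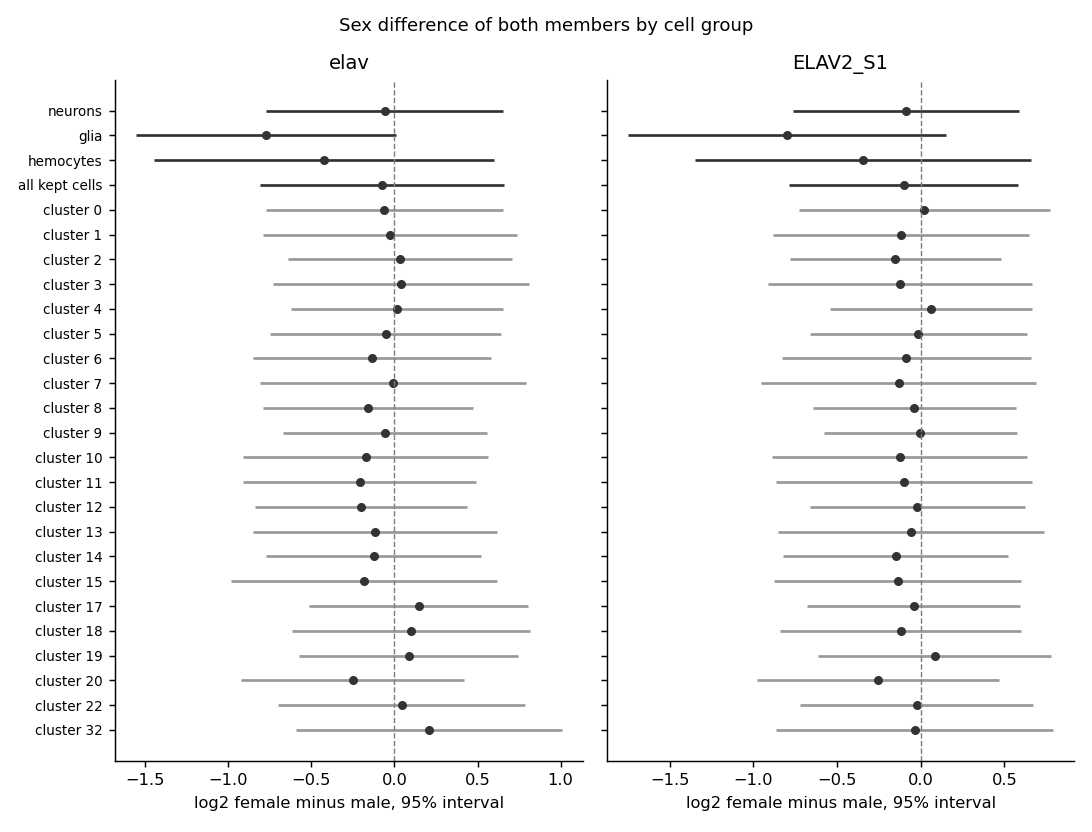
Log2 difference of females minus males (x axis) for *elav* (left) and *ELAV2_S1* (right) in 3 cell classes, all kept cells and 22 neuron clusters, as edgeR's estimate with its 95% interval. Each interval includes 0, and the estimates farthest from it are those of glia at -0.77 and -0.80.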

How the data were processed

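Per the labels and methods, the authors made the expression matrices with Cell Ranger against their own genome and gene models, and deposited raw UMI counts, 1 matrix for each of 5 libraries. Cells were kept at 500 to 60000 UMIs, at least 200 genes, a log10 ratio of genes to UMIs above 0.7 and under 40% of mitochondrial UMIs. Cluster numbers, held for 1998 cells, were spread over a neighbour graph built from variable genes other than the listed ones, after a Harmony-type correction for library. Doublets were scored against simulated ones and kept unless stated. Counts were summed per library and class or cluster and given as counts per 1e6 UMIs (CPM), and log2 ratios had 1 CPM added. A library entered a cluster level with at least 3 cells and a ratio with at least 3 UMIs of each gene. The smallest hemocyte total was 94792 UMIs, at which 3 UMIs are 31.6 CPM. Such floors cover counting error only.

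The sexes were compared by edgeR 4.0.16 in R 4.3.3, with filterByExpr, TMM scaling, glmQLFit and glmQLFTest, at an adjusted p of 0.05 (Benjamini-Hochberg over all genes tested). The code was tested on simulated data, and DESeq2 1.42.0 was an alternative. Standard errors and intervals come from the quasi-likelihood F statistic. Libraries are pools of brains, so p-values measure the spread between pools. Other steps used Python 3.11.15, numpy 2.4.6 and scipy 1.17.1. Reads that near-identical gene copies share could be split or lost in counting. Other settings covered cell limits, cluster transfer, doublets, scale, thinning, the test and its filter and scaling, a replicate block and the omission of each library.

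The members and the gene lists were chosen with earlier results of these data known. The genes to be named were both members, the genes of the neuronal and RNA-binding lists, and for each member the 3 named genes with the highest Spearman correlation over neuron clusters among genes of at least 20 CPM in neurons. The clusters and unnamed genes singled out were chosen after their values were seen. Gene and protein sequences were not used here.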

Additional observations from a re-analysis of the deposited data

Results flagged for a closer look

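Of 90 groups of 4 or 5 libraries, 10 by class and the others by cluster, 8 had a library far from the rest. The rule used flags about 1 in 20 groups by chance. The groups share the same 5 libraries and are not independent, so 8 of 90 cannot be set against that rate. Female replicate 1 was high for *ELAV2_S1* in cluster 4 (1815 CPM, the next library 1485 CPM), cluster 19 (2229 and 1922 CPM), the hemocyte cluster 25 (1549 and 383 CPM) and cluster 29 (551 and 460 CPM). Female replicate 2 was low for it in cluster 31 (1247 CPM, the next library 1575 CPM). For *elav*, female replicate 3 was low in cluster 1 (796 and 1099 CPM) and cluster 5 (1106 and 1445 CPM), and male replicate 2 was high in cluster 8 (1744 and 1495 CPM).

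The 9088 barcodes outside the limits also held both genes, at 666 ± 230 CPM of *elav* and 804 ± 173 CPM of *ELAV2_S1* (n = 5 libraries). In CPM of non-mitochondrial UMIs these were 1570 ± 523 and 1893 ± 416.97, and those of kept cells 1358 ± 218 and 2223 ± 285.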

How the results depend on the processing

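Leaving out each library in turn gave neuron levels of 1097 to 1186 CPM for *elav* and 1788 to 1923 CPM for *ELAV2_S1*, a log2 ratio between them of 0.67 to 0.77, and a neuron excess over hemocytes of 2.19 to 2.44 and 2.20 to 2.43. It gave 28 to 30 and 27 to 29 of 30 neuron clusters above every other cluster, where mitochondrial shares under 20% gave 28 for *elav* and 22 for *ELAV2_S1*, and Leiden clusters 26 of 28 for both. With a library left out the thinned shares were 55.8 to 58.9% for *elav*, 77.8 to 79.9% for *ELAV2_S1* and 43.6 to 47.0% for both. The ratio was 0.92 with mitochondrial shares under 20%. The excess over hemocytes was 3.22 and 3.35 without called doublets, and 2.70 and 2.88 as a mean over cells. Levels in CPM of non-mitochondrial UMIs were 1420.5 and 2323. Shares at 2000 UMIs were 78.6, 93.6 and 73.7% for *elav*, *ELAV2_S1* and both, and without thinning 78.1, 92.8 and 74.1%, since depth sets them. Hemocyte levels without called doublets were 145 and 228 CPM and the log2 ratio of joint detection to independence without thinning 0.86 in hemocytes, both settings chosen after seeing the data.

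The sex difference in neurons was called for neither gene under any setting tried, and its sign was not stable. It was -0.26 to 0.13 for *elav* and -0.16 to 0.02 for *ELAV2_S1* with a library left out, and positive without female replicate 3 (0.13 and 0.019) and, for *elav*, without male replicate 2 (0.01). Where 1 male library remains, it is assumed to vary as the females do. Replicate numbers 1 and 2 occur in both sexes, but no label says that they pair the libraries, and replicate 1 minus replicate 2 correlated between the sexes at r = 0.057 over 12982 genes. With the replicate block the differences were 0.10 and 0.0081, and 73 genes were called. The count of genes called, 7, was 41 by DESeq2, 23 with no filter, 2 with mitochondrial shares under 20%, 3 in all kept cells and 2 to 20 with a library left out. The cause was not tested.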
